A study of Mus musculus with 4 samples.

Results

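Kruppel-like factors are transcription factors that bind CACCC and GC-rich sequences through C2H2 zinc fingers near their carboxyl end, while their other parts recruit activators or repressors and differ widely between members. Klf2 holds T cells in quiescence and directs their exit from tissue, Klf4 is needed for the skin barrier and for monocyte differentiation, and Klf5 is known from the proliferating basal layer of epithelia. Several members are also induced early by stress, serum, hormones or TGF beta. The group described here was chosen by name and comprises Klf2, Klf3, Klf4, Klf5, Klf6, Klf7, Klf9, Klf10 and Klf13, or 9 of the 55335 annotated genes in the tables and 9 of the 17 Klf genes looked up there.

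The RNA came from cells labelled as CD4+ T cells of mouse back skin, in 4 libraries. The 2 control libraries came from Mettl3fl/fl mice, which carry floxed alleles of the m6A methyltransferase gene Mettl3, and the 2 knockout libraries from Mettl3fl/fl;Cd4-Cre mice, which also express Cre from the Cd4 promoter, active in developing T cells. All mice were 8 to 12 weeks old and had received 5% imiquimod cream on the back on 5 consecutive days, at 15 or 62.5 mg a day, with the amount per mouse not given in the sources used here. Imiquimod activates Toll-like receptor 7 and gives a psoriasis-like inflammation. The design asks how loss of Mettl3 in T cells alters their RNA, and here the Klf genes are followed through each library and genotype. Values given in a row follow the order control 1, control 2, knockout 1, knockout 2. Nothing in the labels says how many mice gave a library, so the p-values reflect only how these libraries differ, and part of that may be technical.

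Counted fragments ranged from 3614418 to 4537006 per library, and a gene's level is given as CPM scaled by TMM factors, on which a count of 0 allows up to 0.655 to 0.792 CPM (3 fragments per library, counting error only). Mettl3 had 195, 49, 121 and 158 fragments in control 1, control 2, knockout 1 and knockout 2, with 0% in exons of protein-coding transcripts, so it does not check the deletion. Against the cell label, T cell markers summed to 161.9 to 1054 CPM and macrophage and monocyte markers to 7155 to 28766 CPM, and Cd4 was at 169.6, 0, 104.8 and 2.13 CPM in that order of libraries. Control 2 stood apart, with no fragment for 4064 of the 12434 genes tested, against 221 to 860 in the other libraries, and with keratinocyte markers at 23979 CPM against 1109 to 2413. Its share of mitochondrial transcripts was 7.98%, against 2.29% to 4.39% elsewhere. The part of these differences in the results below was not tested. Values without control 2 are given for Klf5, Klf13 and Klf2, and at the end for Klf6, Klf3 and Klf4. The counts and medians of the gene lists include control 2 throughout.

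All 9 members had fragments in every library, and for 8 of them the 2 genotypes overlapped. Their summed level was 5575 and 5781 CPM for the controls and 5970 and 6037 CPM for the knockouts, or 5678 ± 145 and 6003 ± 48.1 CPM (SD, 2 libraries per genotype), of which Klf6 made up 37.2% to 56.5%. No member passed the threshold (edgeR quasi-likelihood test, adjusted p = 0.9997 for each of the 9). The same held for all genes, with 0% of 12434 called, 187 (1.5%) at an unadjusted p under 0.05, 17 (0.137%) called by DESeq2 and 0 by limma-voom. The log2 fold change was positive for 4 members and negative for 5, with a median of -0.02, beside a median of 0.20 and 56.9% positive over all genes tested. The member median was the value of Klf10, which had only 72 fragments in all. For 8 of the 9 members the log2 fold change was smaller than its own standard error, as it was for 77.8% of all genes. Both knockouts lay below both controls for 1 member, Klf5, where 11.2% of all genes do, and above them for 0 members, where 19.5% of all genes do.

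**Figure D1:**
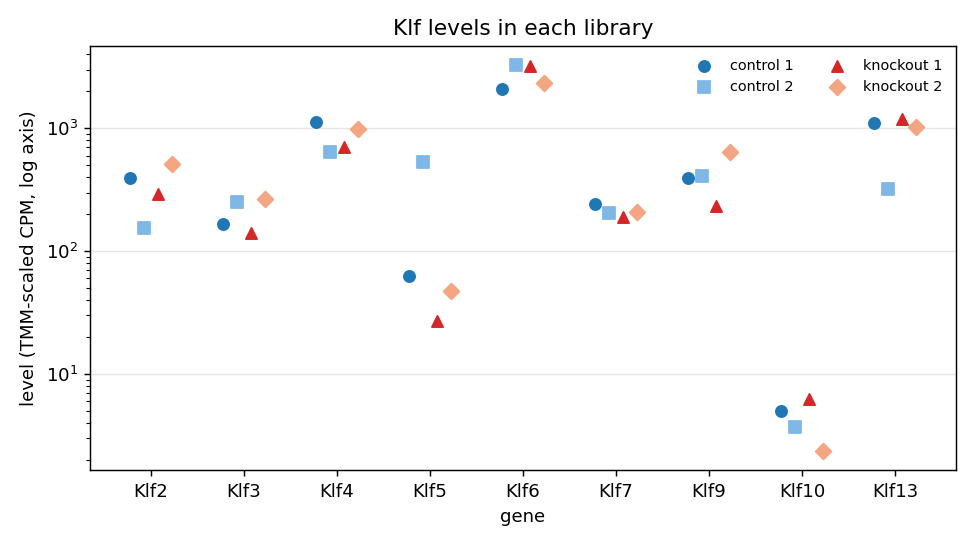
Level of each Klf gene (TMM-scaled CPM, log axis) in the 4 libraries, 1 point per library. Klf6 lies at the top between 2076 and 3265 CPM, Klf10 at the bottom between 2.36 and 6.24 CPM, and control 2 stands apart for Klf5 (531.6 CPM against 27.2 to 63.3) and for Klf13 (318.6 CPM against 1017 to 1182).

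Klf6, a broadly expressed member that in macrophages favours inflammatory gene expression, was the most abundant, above 99.8% of the genes tested by mean level. It lies on GRCm38 chromosome 13, 5861482 to 5870394, plus strand. It had 9512 and 12370 fragments in the controls against 12778 and 9980 in the knockouts. These counts correspond to 2076, 3265, 3189 and 2359 CPM, so that each genotype had a lower and a higher library and the groups overlapped. Control libraries averaged 2671 ± 841 CPM and knockout libraries 2774 ± 587 CPM (SD, n = 2 each), and on the log2 scale the difference was 0.05 ± 0.50 (standard error, as for every ± on a fold change here). Klf6 and Klf5 had their highest level in control 2, as did 27.0% of all genes tested.

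Klf4, which governs the late steps of epidermal barrier formation and monocyte differentiation, lies on chromosome 4, 55527143 to 55532466, minus strand. The controls were at 1129 and 637.5 CPM and the knockouts at 707.8 and 983.7 CPM. The lower and the higher library of each genotype again interleaved, with means of 883.0 ± 347.3 and 845.8 ± 195 CPM (SD, n = 2 each). On the log2 scale the difference was -0.06 ± 0.55, and its direction turned in 5 of 13 alternatives. Its level was lowest in control 2, as were 56.5% of all genes tested, and summed keratinocyte markers were highest there. A link between them was not tested.

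Klf5, the member of basal epithelia and of proliferating cells, was the exception in the group. It lies on chromosome 14, 99298691 to 99315036, plus strand, and had 290 and 2014 fragments in the controls against 109 and 199 in the knockouts. Its level was 63.3, 531.6, 27.2 and 47.0 CPM, a 19.5-fold span in which both knockouts lay below both controls and control 2 lay far above the rest. Control libraries averaged 297.5 ± 331.2 CPM and knockout libraries 37.1 ± 14.0 CPM (SD, n = 2 each), which gave a log2 fold change of -3.00 ± 1.16. The unadjusted p was 0.046 and the adjusted p 0.9997 (edgeR quasi-likelihood test), and 1.5% of all genes had an unadjusted p under 0.05. Without control 2 the log2 fold change was -0.78 ± 0.78 (unadjusted p = 0.352, edgeR), so its size rests on that library. Without control 1 it was -3.77, with an adjusted p of 0.054 (edgeR), in a setting where the median of all genes was 1.72.

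Keratinocyte markers were highest in the same library as Klf5. The 12 markers summed to 1656 and 23979 CPM in the controls against 2413 and 1109 CPM in the knockouts, and 10 of 11 tested had a negative log2 fold change (median -2.98). Krt1, a keratin of the suprabasal epidermis, was at 94.7, 2290, 64.1 and 54.6 CPM, and Perp, a desmosome-associated protein, at 226.6, 6580, 442.5 and 100.5 CPM. Among the 12 markers, Lor was at 0 in control 2 and knockout 1, and Dsp and Ivl were at 0 in knockout 2. In such a mixed sample, fewer cells of a type and less RNA per cell cannot be told apart, and the part of keratinocyte RNA in the Klf5 difference was not tested.

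**Figure D2:**
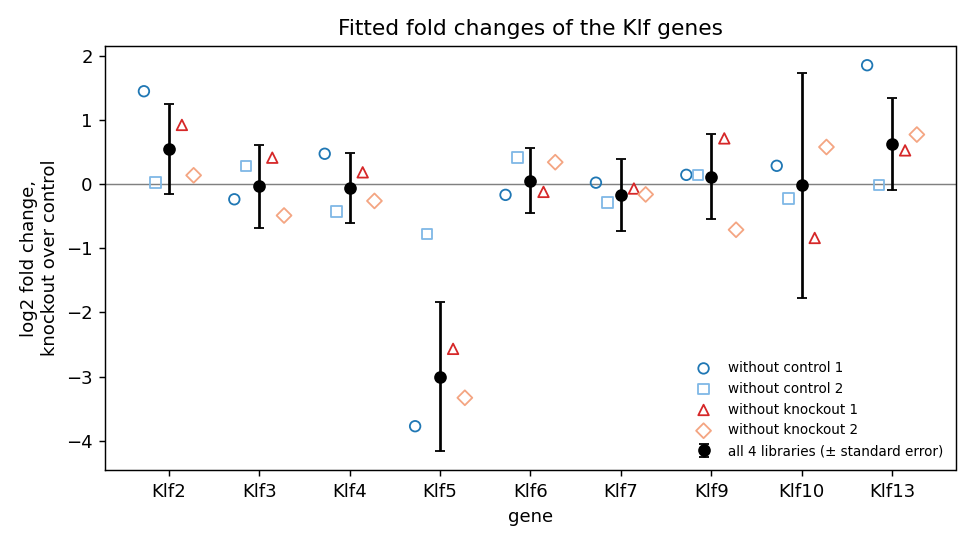
Log2 fold change of knockout over control for each Klf gene, with the edgeR value on all 4 libraries as a black point with its standard error and the value without each library as an open symbol. Klf5 is the only member whose point lies more than a standard error from 0, and without control 2 it moves from -3.00 to -0.78.

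Klf13 and Klf2 had the most positive log2 fold changes of the 9, and both were near 0 without control 2. Klf13, known for driving expression of the chemokine gene Ccl5 in activated T cells, lies on chromosome 7, 63886351 to 63938915, minus strand. The controls were at 1105 and 318.6 CPM and the knockouts at 1182 and 1017 CPM, so control 1 lay between the knockouts. The log2 fold change of 0.63 (standard error 0.71) became -0.02 (standard error 0.49) without control 2 and 1.85 (standard error 0.52) without control 1. Klf2, the quiescence factor of T cells and a flow-responsive gene of endothelium, lies on chromosome 8, 72319033 to 72321656, plus strand. The controls were at 394.7 and 154.4 CPM and the knockouts at 292.0 and 513.7 CPM. Its knockout libraries lay on either side of control 1, and the log2 fold change of 0.55 (standard error 0.70) became 0.02 (standard error 0.61) without control 2 and 1.45 (standard error 0.66) without control 1. Without control 1 the median over all genes tested was itself 1.72, near the values of Klf13 and Klf2. Endothelial markers, listed because endothelium expresses Klf2, summed to 6.60 to 41.6 CPM, and Tie1 and Emcn were at 0 in all 4 libraries.

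Klf2, Klf4 and Klf13, or 3 of the 9 members, were lowest in control 2, and Klf6 and Klf5 were highest there. Of all genes tested, 56.5% were lowest and 27.0% highest in that library, so neither count exceeded the background. The upstream sequences of Klf2, Klf4 and Klf13, which were all lowest in control 2, and of Klf6, which was highest there, are given below from RefSeq on GRCm38.p6, each covering the 250 bases before the annotated start, 5′ to 3′ on the gene's strand. Capitals mark CACCC and GGGCGG on either strand, the letters that Klf proteins and the related Sp proteins bind, and the sites may overlap. The windows are chr8:72318812-72319061 (plus strand), chr4:55532476-55532725 (minus strand), chr7:63938916-63939165 (minus strand) and chr13:5861239-5861488 (plus strand) for Klf2, Klf4, Klf13 and Klf6.
Klf2: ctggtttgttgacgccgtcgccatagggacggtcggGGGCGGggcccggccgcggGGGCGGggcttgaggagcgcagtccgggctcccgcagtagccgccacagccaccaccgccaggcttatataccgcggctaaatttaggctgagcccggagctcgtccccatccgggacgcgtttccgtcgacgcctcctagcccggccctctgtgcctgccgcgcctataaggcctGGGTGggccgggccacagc
Klf4: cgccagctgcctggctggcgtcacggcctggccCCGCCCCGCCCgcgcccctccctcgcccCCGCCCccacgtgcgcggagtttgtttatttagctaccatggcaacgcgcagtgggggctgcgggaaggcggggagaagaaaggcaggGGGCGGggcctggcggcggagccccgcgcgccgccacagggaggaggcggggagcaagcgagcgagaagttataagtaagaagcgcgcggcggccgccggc
Klf13: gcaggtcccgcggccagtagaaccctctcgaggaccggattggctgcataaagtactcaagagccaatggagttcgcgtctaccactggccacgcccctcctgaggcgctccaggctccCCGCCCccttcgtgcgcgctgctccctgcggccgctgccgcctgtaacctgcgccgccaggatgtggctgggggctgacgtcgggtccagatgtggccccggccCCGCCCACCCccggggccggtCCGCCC
Klf6: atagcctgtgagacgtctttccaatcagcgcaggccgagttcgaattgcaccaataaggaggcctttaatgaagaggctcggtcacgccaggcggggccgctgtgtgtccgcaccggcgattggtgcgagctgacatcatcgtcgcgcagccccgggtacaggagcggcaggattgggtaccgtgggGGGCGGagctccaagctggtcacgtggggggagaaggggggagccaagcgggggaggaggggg

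GGGCGG was found 2 times upstream of Klf2, 4 times upstream of Klf4, 3 times upstream of Klf13 and 1 time upstream of Klf6. CACCC was found 1 time each upstream of Klf2 and Klf13 and 0 times upstream of Klf4 and Klf6. Of 7 members with a sequence in the table, 6 held GGGCGG and 5 held CACCC, where 32.7% and 52.0% of all 32851 windows do. The windows of these 4 genes had a GC content of 71.2%, 74%, 71.6% and 64.8% in the printed order, and GGGCGG consists of G and C alone. A match to the MEF2 site, through which the ERK5 kinase pathway is known to induce Klf2, was found in 1 member, Klf2, 108 bases before the start, and in 2.92% of all windows. CCAAT was found in 3 members, with 4 matches upstream of Klf6 and 2 upstream of Klf13, and in 33.8% of all windows. The AP-1 like letters TGANTCA were found in 1 member, Klf9, and in 6.75% of all windows, and the CArG box, which serum response factor binds, in 0 members and 1.47% of all windows. Klf3, which was lowest in knockout 1, had 6 matches to GGGCGG and 5 to CACCC, the most of the 7 members for each. These matches describe letters in the windows and were not set against any measure of binding, and a link to the level in control 2 was not tested.

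Klf9, a target of glucocorticoid and thyroid hormone receptors, lies on chromosome 19, 23141226 to 23168134, plus strand. The controls were at 392.9 and 412.6 CPM and the knockouts at 233.6 and 639.5 CPM. The controls (402.7 ± 13.9 CPM) lay between the knockouts (436.5 ± 287.0 CPM; SD, n = 2 each). On the log2 scale the difference was 0.12 ± 0.66, and with a single knockout library left in it was -0.71 without knockout 2 and 0.71 without knockout 1. Klf3, a repressor that binds the corepressor CtBP, lies on chromosome 5, 64803388 to 64832901, plus strand, and followed the same order at 167.2, 251.8, 140.8 and 268.1 CPM. For both genes knockout 2 was the highest library and knockout 1 the lowest. The root mean square difference of their centred log2 levels over the 4 libraries was 0.26, the second smallest of the 36 pairs of members after the 0.25 of Klf4 and Klf7. The shared order and this difference rest on counts that include retained-intron exons of Klf3. Its protein-coding last exon alone had 610, 885, 343 and 678 fragments, with the highest count in control 2. The log2 fold change of Klf3 was -0.04 ± 0.65, and -0.49 ± 0.68 without the retained-intron exons that held 26.2% of its fragments.

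Klf7, known from the development of sensory neurons, had the narrowest span of the 9 members. It lies on chromosome 1, 64029447 to 64122282, minus strand, with controls at 241.9 and 205.1 CPM and knockouts at 190.7 and 207.3 CPM. Its highest library exceeded its lowest by a ratio of 1.27, and 97.1% of the 2037 genes with a mean of at least 100 CPM had a wider span. The means were 223.5 ± 26.0 and 199.0 ± 11.8 CPM (SD, n = 2 each), which gave a log2 fold change of -0.17 ± 0.56. The span of the other members with such a mean ran from 1.57 for Klf6, 1.77 for Klf4 and 1.90 for Klf3 to 2.74 for Klf9, 3.33 for Klf2, 3.71 for Klf13 and 19.5 for Klf5. The median of those 2037 genes was 2.81, so the 8 members at this level lay on both sides of it.

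**Figure D3:**
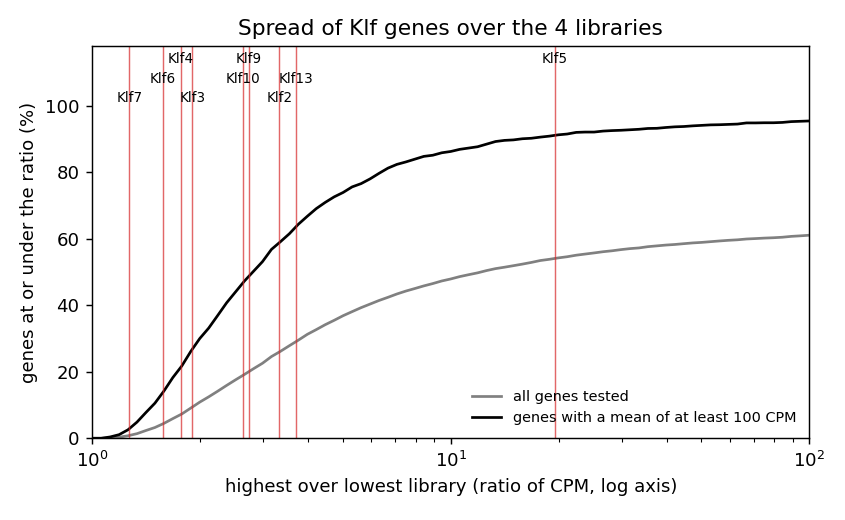
Share of genes (%) whose highest library exceeds their lowest by at most the ratio on the log axis, for all genes tested and for genes with a mean of at least 100 CPM, with 1 red line per Klf gene. Klf7 lies at 1.27, where few genes are, and Klf5 at 19.5, which 8.74% of the genes with a mean of at least 100 CPM exceed.

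Klf10, the TGF beta-inducible early gene, could hardly be measured. It lies on chromosome 15, 38291463 to 38300706, minus strand, and had 23, 14, 25 and 10 fragments in control 1, control 2, knockout 1 and knockout 2. In the deposited tables a fragment that overlaps more than 1 annotated exon entry was as a rule not counted. Exceptions exist, since a Mettl3 entry with 0 bases of its own (52296516 to 52296762) held 24 fragments. For Klf10, 11 of the 22 entries lie at the same coordinates as an entry of a different transcript. Its 72 fragments came from 3 entries that belong to single transcripts, and in control 2 and knockout 2 all of them lay in 1 entry (38300267 to 38300417). The resulting 2.36 to 6.24 CPM describe these entries and not the level of the gene, and the log2 fold change was -0.02 ± 1.75.

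Levels of different members were compared per kilobase of exon that belongs to a single entry, which remains rough because for most members the counted fragments came mainly from the 3′ end. On this scale Klf6 had 814.2 ± 177.9 CPM per kilobase, Klf4 441.0 ± 117.8 and Klf2 183.4 ± 82.6 (SD, n = 4 libraries). Klf6 exceeded Klf4, and Klf4 exceeded Klf2, in every library with no overlap of their ranges. Klf13 followed at 128.6 ± 56.4 and Klf9 at 104.2 ± 41.5 CPM per kilobase, and the ranges of Klf2 and Klf13, and of Klf13 and Klf9, overlapped. Klf5 at 39.9 ± 58.0, Klf7 at 30.0 ± 3.08 and Klf3 at 23.1 ± 6.96 CPM per kilobase also overlapped with their neighbours, and Klf5 lay above Klf7 in 1 of 4 libraries only. The 8972 bases used for Klf3 include 885, 2406 and 2320 bases of retained-intron entries, so its place in this order depends on them.

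Apart from Klf10, most counted fragments of each member lay in its last exon. The last exon also held 3119 of the 3344 bases that belong to a single entry for Klf6, and 913 of 1847 for Klf2. These shares therefore describe counted fragments and not coverage of the whole RNA. The entry with most fragments held 99.8% of the fragments of Klf6, 99.0% of Klf13, 92.5% of Klf9, 91.5% of Klf2, 81.1% of Klf7, 73.6% of Klf3, 69.8% of Klf4 and 67.4% of Klf5. In control 2 an upstream exon of Klf2, of Klf9 and of Klf7 had hardly any fragment. The middle exon of Klf2 (72319426 to 72320242) had 161 of 1808 fragments in control 1, 112 of 1170 in knockout 1 and 155 of 2173 in knockout 2, or 7.13% to 9.57%, but 0 of 585 in control 2, which allows up to 0.513%. The first exon of Klf9 (23141226 to 23142259) had 7.61% of the fragments in control 1 and 12.6% and 9.76% in the knockouts, but 0 of 1563 in control 2, which allows up to 0.192%. An upstream entry of Klf7 (64120900 to 64121491) held 9.12% of the fragments of control 1, 10.5% of knockout 1 and 2.05% of knockout 2, and 0.129% (1 fragment) of control 2, where another upstream entry (64122202 to 64122282) was covered with 122 fragments. Klf4 and Klf5 did not share this, and their upstream exons were covered in control 2, for example with 444 of 2415 fragments in the long exon of Klf4 (55529999 to 55530983). The first exon of Klf2 (72319033 to 72319149) held 0.855% in control 2 (5 fragments) and 1.05% to 1.15% elsewhere. The first exon of Klf13 (63937967 to 63938915) held 1.91% in control 2 (23 fragments) and 0.395% to 0.718% elsewhere.

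**Figure D4:**
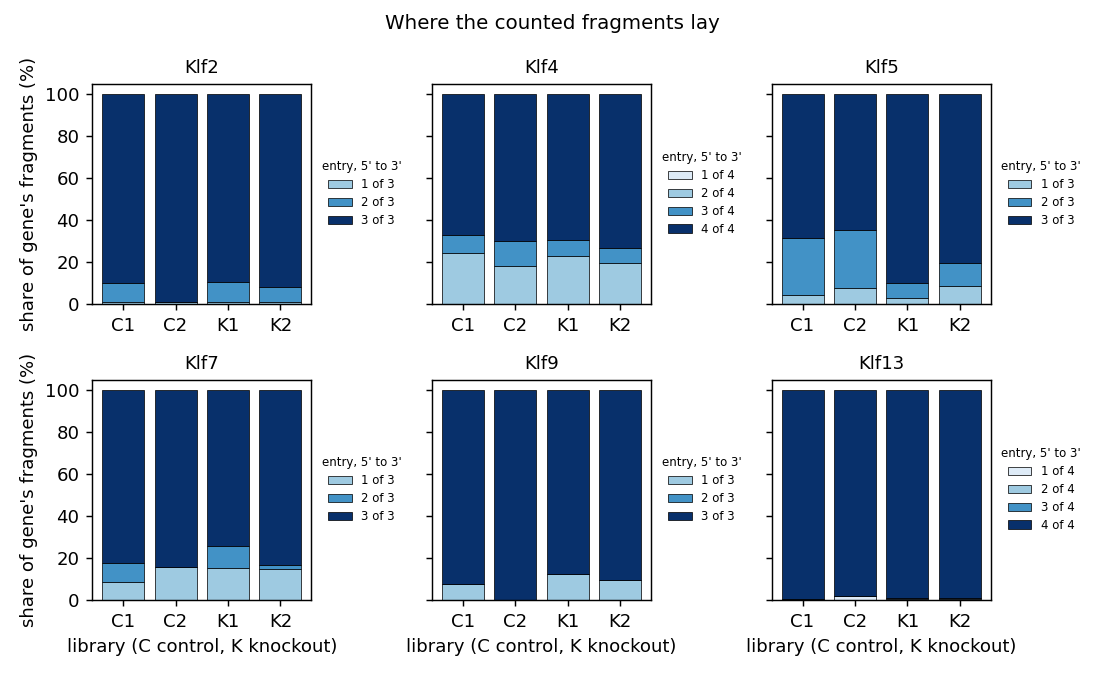
Share (%) of each gene's counted fragments by exon entry, ordered from 5′ (light) to 3′ (dark), in control 1 (C1), control 2 (C2), knockout 1 (K1) and knockout 2 (K2). The upstream entries of Klf2 and Klf9 that hold 7.13% to 12.6% in the other libraries are at 0 in control 2, and the middle entry of Klf5 is larger in both controls than in both knockouts.

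The shares of some exon entries in Klf3, Klf4, Klf5 and Klf9 did not overlap between the genotypes, and those of Klf5 and Klf3 are given in full. In Klf5, the entry from 99303418 to 99305326 is the terminal exon of another protein-coding transcript. Its share was 26.9% (exact 95% binomial interval 21.9 to 32.4) and 27.5% (25.5 to 29.5) for the controls. For the knockouts it was 7.34% (3.22 to 14.0) and 11.1% (7.06 to 16.3). The 2 controls were alike in this share although their Klf5 levels differed by a wide margin. In Klf3, an entry given to a retained-intron transcript (64822879 to 64825429) had a share of 19.3% (16.6 to 22.3) and 7.23% (5.67 to 9.06) for the controls and of 36.7% (32.7 to 40.8) and 31.2% (28.5 to 34) for the knockouts, while its protein-coding last exon held 79.6%, 92.8%, 60.8% and 59.8%. Both knockouts thus lay above both controls for the intron entry and below them for the last exon. These entries were singled out after their values were seen, and the intervals cover counting error only. With 2 libraries a group a two-sided exact permutation test cannot go below p = 0.333, so no test is given.

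Non-overlap of exon shares was frequent in these data. Among 5136 entries that held 5% to 95% of the fragments of a gene with at least 100 fragments in every library, both knockouts lay above both controls for 13.6% and below them for 13.6%. Of 15 such entries in 6 members, 3 lay above and 4 below, and entries of 1 gene are tied to each other since their shares add up.

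Of the 8 other Klf genes, 2 had enough fragments to be tested, and of the 9 related Sp genes, 5 had. Klf11, a TGF beta-inducible relative of Klf10, was at 120.3, 171.6, 182.5 and 147.0 CPM in control 1, control 2, knockout 1 and knockout 2, and the groups overlapped (log2 fold change 0.18 ± 0.62). Klf16 was at 89.7, 43.3, 36.7 and 48.7 CPM, again overlapping (log2 fold change -0.64 ± 0.91). Klf1, the erythroid member, had 39 fragments in knockout 2 and 0 in the other libraries. Klf8, Klf12 and Klf14 had 17, 29 and 8 fragments in all, and Klf15 and Klf17 had 0. Of the Sp genes, Sp1, a broadly expressed activator of GC-rich promoters, was at 178.8, 105.3, 79.1 and 62.6 CPM, with both knockouts below both controls, a log2 fold change of -1.003 (standard error 0.72) and an unadjusted p of 0.218 (edgeR). Sp5 had 892, 0, 121 and 598 fragments. Of 5 Sp genes tested, 1 was positive and 4 negative (median -0.18), and 0 passed the threshold.

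Genes upstream of the members or acting with them did not pass the threshold either. Of the ERK5 and Foxo1 axis, which induces Klf2 and Klf4, 5 of 9 genes tested were positive and 4 negative, with a median log2 fold change of 0.25. Its most abundant gene, the kinase Map3k3, was at 236.0, 184.8, 155.2 and 251.8 CPM in control 1, control 2, knockout 1 and knockout 2, and the kinase Map2k5, with the lowest p, at 38.2, 6.07, 30.9 and 42.1 CPM. Of the TGF beta axis, 6 of 11 were positive (median 0.11). The receptor Tgfbr2 was at 414.8, 681.3, 216.1 and 461.5 CPM and Tgfbr3 at 273.1, 398.3, 107.8 and 286.3 CPM, both lowest in knockout 1. Of the partners and ubiquitin ligases of Klf proteins, 7 of 10 were positive (median 0.46). The acetyltransferase Crebbp was at 157.8, 49.9, 132.5 and 129.8 CPM, and the ligase Itch at 11.1, 0, 34.7 and 48.7 CPM.

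Glucocorticoid-responsive genes, listed beside Klf9, did not pass the threshold. All 7 tested had a positive log2 fold change (median 0.82), and 4 of them had both knockouts above both controls. Over all genes tested, 56.9% were positive (median 0.20) and 19.5% had both knockouts above both controls. Fkbp5, a chaperone of the glucocorticoid receptor, was at 3.06, 7.65, 24.5 and 38.1 CPM, and the phosphatase gene Dusp1 at 472.4, 221.2, 596.0 and 483.0 CPM in control 1, control 2, knockout 1 and knockout 2. Klf9 itself, as given above, had one knockout below and the other above the controls.

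Reported targets of the members did not pass the threshold either. Of 11 tested, 10 were positive and 1 negative (median 0.79), with both knockouts above both controls for 3 and below for 1. Over all genes tested, 56.9% were positive, 19.5% lay above and 11.2% below in this way. Thbd, encoding thrombomodulin, was at 170.3, 170.3, 1025 and 240.2 CPM in control 1, control 2, knockout 1 and knockout 2. A further 3 targets were named after their values were seen. S1pr1, the sphingosine-1-phosphate receptor that Klf2 induces for tissue exit, was at 277.4, 177.9, 126.5 and 68.3 CPM, both knockouts below both controls, and its log2 fold change was -1.22 (unadjusted p = 0.129, edgeR). The integrin chain Itgb7 was at 282.9, 0, 587.8 and 242.1 CPM and the Klf13 target Ccl5 at 88.6, 1.06, 84.9 and 78.5 CPM, both lowest in control 2, as 56.5% of all genes tested were.

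Markers of the cells that the samples could hold differed widely between libraries. T cell markers were negative for all 12 tested (median -1.15), led by Trac at 197.8, 73.1, 34.9 and 25.5 CPM in control 1, control 2, knockout 1 and knockout 2. Macrophage and monocyte markers were positive for all 12 (median 1.67), led by Lyz2 at 9378, 3876, 14351 and 10809 CPM, with Ly6c2 at 15.1, 4.22, 130.8 and 119.4 CPM. Neutrophil markers were positive for all 3 tested of 8 listed (median 1.92). Among them Mmp8 was at 342.7, 231.5, 1527 and 642.8 CPM and Clec4d at 36.0, 18.2, 179.0 and 197.9 CPM. S100a9 and Ly6g were at 0 in all 4 libraries, but only 0.013 kilobases of S100a9 exon belong to a single entry. The 0 of S100a9 therefore cannot show that its RNA was absent. Dendritic and Langerhans markers were positive for 3 of 7 (median -0.21), led by Ccr7 at 1018, 87.1, 366.7 and 304.0 CPM, with Xcr1 at 34.5, 0, 109.8 and 99.3 CPM. Fibroblast markers were negative for all 6 (median -0.40), led by Mmp2 at 2590, 386.4, 998.9 and 1948 CPM, with Lum at 2229, 866.3, 1051 and 1156 CPM. Of the 4 endothelial markers tested, 3 were positive (median 0.53), led by Kdr with 52, 0, 45 and 85 fragments. Of the 3 mast cell markers tested, 2 were positive (median 1.64), led by Cpa3 with 304, 1, 269 and 892 fragments, with Tpsb2 at 20.3, 3.17, 12.2 and 61.2 CPM. In none of these lists did a gene pass the threshold, and their part in the levels of the Klf genes was not tested.

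Genes known to respond to enzymatic dissociation of tissue, among which Klf2, Klf4 and Klf6 are often counted, summed to 35448 and 18931 CPM in the controls against 41427 and 37090 CPM in the knockouts. Of 17 tested, 13 were positive and 4 negative (median 0.21), close to the median of 0.20 over all genes. Hspa1a, an inducible heat shock protein, led the list at 8025, 2026, 8632 and 7127 CPM, and Ier3 was at 3051, 2939, 5168 and 4588 CPM. The sum was lowest in control 2, as were 56.5% of all single genes tested.

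Closeness to a member over the 4 libraries was the root mean square difference of centred log2 CPM. The closest genes were sought among 6095 protein-coding genes with a mean of at least 5 CPM and a fragment in every library. For Klf6 they were Lzic (0.015), C1galt1c1 (0.031) and Clec2d (0.032), and for Klf13, the member with the second highest mean level, Ppp2r1a (0.039), Cfp (0.054) and Crkl (0.056). For Klf5, added after its values were seen, they were Chac2 (0.069), Ints3 (0.094) and Maob (0.099), each highest in control 2. Maob was at 24.7, 224.1, 12.2 and 17.7 CPM in control 1, control 2, knockout 1 and knockout 2. Chac2 was at 2.84, 23.8, 1.25 and 2.36 CPM, low levels outside control 2 at which counting error is large. With 4 libraries many genes come close to any pattern, and these are descriptions only.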

How the data were processed

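The deposited tables hold raw fragment counts per exon entry. Per the file headers, the authors counted with featureCounts 2.0.1 (read pairs with both ends mapped, not chimeric, no strand setting, by exon entry) on GRCm38 alignments with the GENCODE M23 annotation. Trim Galore 0.6.7 and STAR 2.7.9a are named in the submitters' processing notes. No step on duplicate reads is stated. Of the exon entries, 64.8% share coordinates with another entry, and these held 0 fragments, so a gene's counts come from exons of single transcripts, and transcript use can change them. Antisense RNA cannot be told apart. Transcript types came from GENCODE M21, which holds 99.7% of the entries.

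Counts were summed per gene, with symbols for 55154 genes, and tested with edgeR 4.0.16 in R 4.3.3 (filterByExpr at 10, TMM, quasi-likelihood, two-sided, Benjamini-Hochberg over 12434 genes at 0.05, no covariates). The standard error is the log2 fold change over the square root of F. DESeq2 1.42.0 and limma-voom (limma 3.58.1) were among 13 alternatives. Library numbers follow accession order and pair nothing. The members, gene lists and alternatives were chosen with earlier results of these data known. Named genes are the members and, per list, the gene with the highest mean and the one with the lowest p, apart from those said to be chosen later. A gene that this rule names among the reported targets is not reported here. The gene lists tested beside the members were the other Klf genes, Sp genes, partners and ligases, the ERK5 and Foxo1 axis, the TGF beta axis, glucocorticoid response, reported targets, dissociation response and 8 sets of cell type markers.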

Additional observations from a re-analysis of the deposited data

How the results depend on the processing

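No member was called in any of the 13 alternatives. The number of genes called was 17 with DESeq2 and 27 with no low-count filter, lay between 0 and 4 with 1 library left out, and was 0 otherwise. The median log2 fold change of the members was -0.02, lay between -0.16 and 0.18 with 1 library left out and took both signs among the others, from -0.15 with library totals only to 0.11 with no low-count filter. The direction of Klf2 and Klf5 held in all 13 alternatives. Near-zero fold changes turned. Klf3 became 0.013 with upper-quartile factors and 0.11 with no low-count filter. In the other direction, Klf3 became -0.49 without retained-intron exons and -0.58 with 1 exon entry per member, a setting added after the data were seen. Klf4 became 0.027 with no low-count filter, 0.0077 without retained-intron exons and 0.011 with 1 exon entry per member. Klf6 became -0.077 with library totals only, and Klf9 -0.051 by limma-voom. Klf10 became 0.047 with upper-quartile factors, 0.077 with no low-count filter, 0.066 without retained-intron exons and 0.032 with 1 exon entry per member.

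With 1 library left out, log2 fold changes ranged from 0.021 to 1.45 for Klf2, -0.49 to 0.41 for Klf3, -0.42 to 0.47 for Klf4, -3.77 to -0.78 for Klf5, -0.17 to 0.41 for Klf6, -0.29 to 0.022 for Klf7, -0.71 to 0.71 for Klf9, -0.84 to 0.58 for Klf10 and -0.016 to 1.85 for Klf13. Without control 2 the values were 0.41 for Klf6, 0.28 for Klf3 and -0.42 for Klf4. In each of these leave-out fits the lone library left in a group is assumed to vary like the others. The median of all genes was 0.20, and moved to 0.44 by limma-voom, 0.30 with no low-count filter, -0.055 when each library had to hold the gene and 1.72 without control 1. The cause of these changes was not tested. No paired analysis was possible because the labels number no replicates.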
